A study of Peromyscus maniculatus with 16 samples.

Results

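Liver mRNA of 7 fatty acid desaturase and elongase genes (Fads1, Fads2, Fads3, Fads6, Elovl1, Elovl2 and Elovl5) was followed in 16 outbred deer mice (Peromyscus maniculatus) on chow or a high fat diet. The genes were picked by symbol from the 16910 genes of a count table, where all 7 were found, and all 7 were among the 12639 genes that reached 0.5 CPM, a measure of a gene's counts relative to the library total, in 1 animal or more. They were chosen on earlier results of the same diet comparisons, so their levels by diet and steatosis are given as a description with no p-value. The comparison of the 2 stocks of deer mice was not used to choose the 7 genes and was tested. Earlier results of these data were known when the tests were chosen.

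All animals were taken at 10 months of age. The control group (C, n = 6) ate regular chow, and 10 animals ate a high fat diet (HFD) with sucrose, 58 kcal% of it fat, for 28 weeks from an age of 3 to 4 months. Livers on HFD were divided by whether they showed steatosis (S, n = 5) or not (NS, n = 5). Every group held 1 male of the SM2 stock (P. maniculatus sonoriensis, from wild-caught founders), here C1, NS1 and S1. The other 13 animals were of the BW stock (P. maniculatus bairdii), a colony bred closed in captivity that also goes back to wild-caught ancestors. The study's methods describe only the BW stock, and the stock of each animal here follows its sample label. All C and NS animals were male, whereas S held 3 BW females (S2, S4 and S5), 1 BW male (S3) and the SM2 male (S1), so sex and steatosis cannot be told apart in the females. The animals numbered within each group are separate biological replicates, and the numbers are only names.

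Polyunsaturated fatty acids with long chains are made mainly in the liver from linoleic and alpha-linolenic acid, which mammals must eat. Fads2, the slow step, inserts a double bond near the carboxyl end, Elovl5 lengthens the chain, and Fads1 inserts the next double bond to give arachidonic and eicosapentaenoic acid. Elovl2 lengthens these further towards docosahexaenoic acid, which is finished by Fads2 and a round of shortening in peroxisomes. Transcription of these genes is known to be raised by the sterol regulatory element-binding protein SREBP-1 (gene Srebf1), by liver X receptors and by PPAR-alpha, and to be lowered by polyunsaturated fat in the diet.

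Total counts per library ran from 4640733 to 11349971. At this depth Fads1 was covered by 1091 to 6231 reads per liver and Fads2 by 3407 to 15706, Elovl2 by 2085 to 5578 and Elovl5 by 2692 to 10150, whereas Fads3 (102 to 594), Fads6 (93 to 364) and Elovl1 (33 to 165) rested on fewer reads and are less precise. The summed level of 8 hepatocyte markers lay between 56669.9 and 84535 CPM in every liver. Levels of single genes below are CPM scaled with TMM factors, which adjust for differences in composition between libraries. Sums over markers are CPM by total count, without these factors. Levels are compared between animals for the same gene or marker list, never between genes, since transcript lengths were not used here. In whole liver, fewer cells of a type and less RNA per cell cannot be told apart.

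Fads2, the desaturase that starts the pathway, stood higher in every HFD liver than in any chow liver. Its level in C1 to C6 was 448, 533, 597, 533, 610.1 and 728 CPM. In NS1 to NS5 it was 1808, 1653, 1529.6, 1293 and 1866 CPM, and in S1 to S5 it was 1702, 1274, 1585, 1369.5 and 915 CPM. The highest chow liver (C6) lay below the lowest HFD liver (S5), and NS4 and S5 were the lowest of their groups. Group means were 575 ± 94.5 CPM in C (SD, n = 6), 1630 ± 229.9 in NS (SD, n = 5) and 1369 ± 305 in S (SD, n = 5). The HFD mean was 2.6-fold the chow mean, a log2 difference of 1.38 ± 0.15 (standard error, SE), with 1.5 ± 0.17 for NS vs C and 1.25 ± 0.17 for S vs C.

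Fads1, which inserts the last double bond of arachidonic acid, showed the same separation. Its level in C1 to C6 was 258, 171, 185, 153, 164 and 175 CPM. In NS1 to NS5 it was 649, 521, 615, 383 and 645 CPM, and in S1 to S5 it was 639, 724, 643, 495 and 352 CPM. Chow and HFD livers did not overlap, and C1, the SM2 animal, was the highest of the chow livers. The C mean was 184 ± 37.5 CPM (SD, n = 6), the NS mean 563 ± 113 and the S mean 571 ± 147 (SD, n = 5 each). The log2 difference was 1.62 ± 0.18 (SE) in HFD vs C, or 3.08-fold, with 1.61 ± 0.20 for NS vs C and 1.63 ± 0.20 for S vs C.

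Elovl5, which lengthens the products of Fads2, was higher in mean on HFD by a smaller fold. Its level in C1 to C6 was 302, 431, 389, 442, 319 and 395 CPM. In NS1 to NS5 it was 427, 854, 589, 553 and 852 CPM, and in S1 to S5 it was 699, 777, 863, 885 and 469 CPM. All S livers lay above all chow livers, while NS1 fell inside the chow range. The log2 difference was 0.87 ± 0.18 (SE) in HFD vs C, or 1.83-fold, with 0.79 ± 0.20 for NS vs C and 0.96 ± 0.20 for S vs C.

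Elovl2, the elongase of the later steps towards docosahexaenoic acid, was also higher in mean on HFD, with overlap. Its level in C1 to C6 was 206, 326, 302, 316, 223 and 268 CPM. In NS1 to NS5 it was 468, 454, 551, 306 and 461 CPM, and in S1 to S5 it was 630.1, 734, 580.2, 396 and 269 CPM. NS4 and S5 fell inside the chow range and the other 8 HFD livers lay above it. The log2 difference was 0.82 ± 0.20 (SE) in HFD vs C, or 1.77-fold, with 0.71 ± 0.22 for NS vs C and 0.93 ± 0.22 for S vs C.

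**Figure D1:**
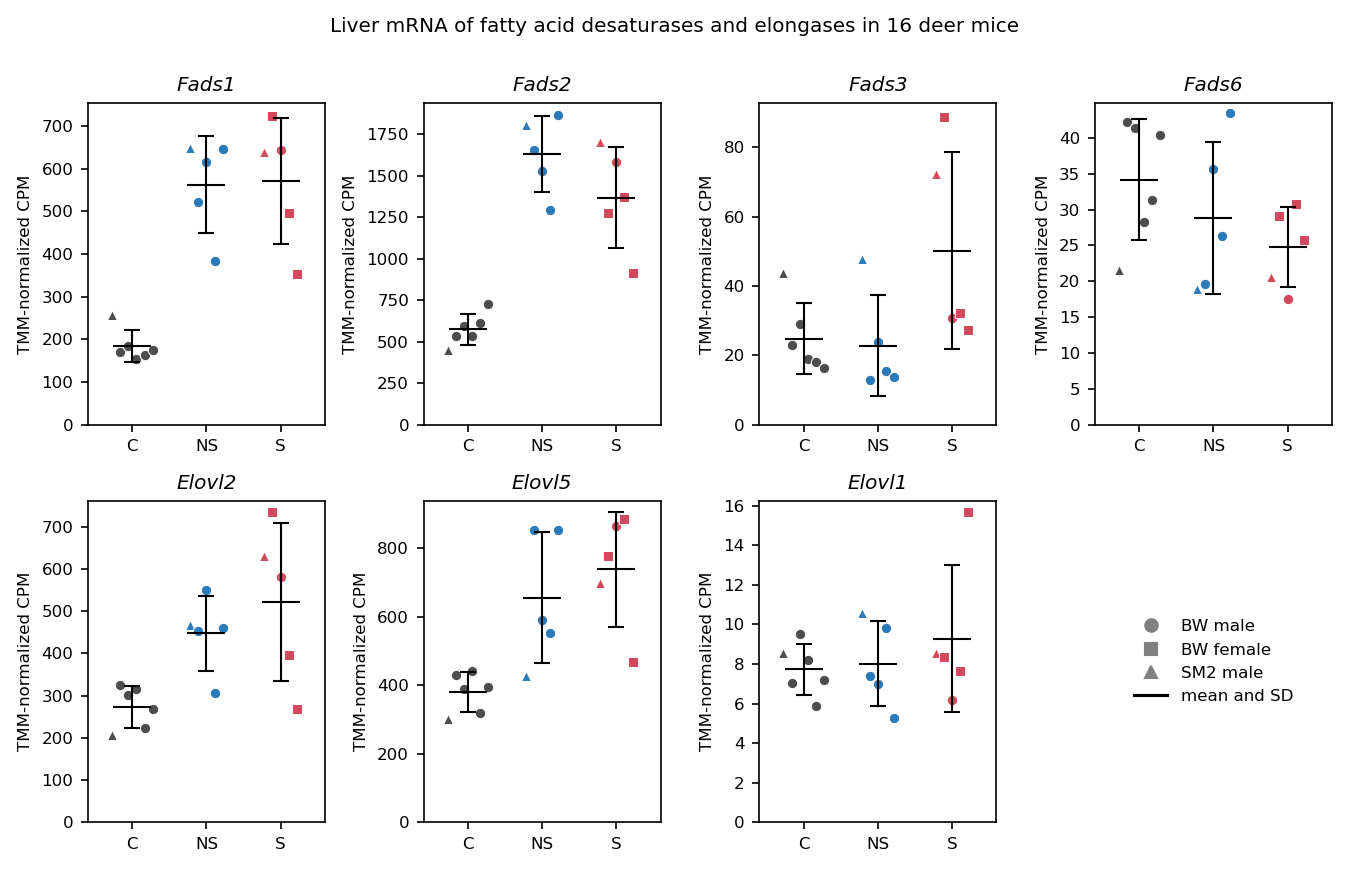
TMM-normalized CPM (vertical axes, each from 0) of the 7 genes in single livers of the C, NS and S groups. Circles are BW males, squares BW females and triangles SM2 males, and bars give the group mean and SD. Fads1 and Fads2 in all 10 HFD livers lie above all 6 chow livers, and the SM2 animals are high for Fads3 in each group.

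The remaining 3 genes act beside this route. Fads3, a desaturase that acts on sphingolipid bases, was at 16.3 to 43.6 CPM in C, at 13 to 47.8 in NS and at 27.2 to 88.6 in S, with overlap between all groups. Its log2 difference was 1.01 ± 0.39 (SE) for S vs C and −0.12 ± 0.39 for NS vs C, the widest errors of the 7 genes in these comparisons. Fads6, a family member with no settled substrate, was at 34.1 ± 8.49 CPM in C (SD, n = 6), 28.8 ± 10.6 in NS (SD, n = 5) and 24.7 ± 5.61 in S (SD, n = 5), a log2 difference of −0.35 ± 0.20 (SE) in HFD vs C. Elovl1, which lengthens saturated and monounsaturated chains for sphingolipids, was at 5.88 to 9.53 CPM in C and 5.29 to 10.6 in NS, and at 6.19 to 8.53 in 4 S livers with 15.7 in S5. Its log2 difference in HFD vs C was 0.16 ± 0.21 (SE), within 1 SE of 0.

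A gene was called when the adjusted p was under 0.1 over all genes and the fold was at least 2, the thresholds of the study. In HFD vs C 2 of the 7 genes were called, Fads1 and Fads2, where 0.894% of all genes were called. The same 2 genes were called in S vs C, where 4.06% of all genes were, and likewise in NS vs C, where 0.0712% were. At any fold Elovl2 and Elovl5 also passed in HFD vs C (4 of 7, against 2.67% of all genes) and in S vs C (4 of 7, against 10.8%). Complete separation, with every liver above every chow liver, was seen for 2 genes in HFD vs C (0.174% of all genes), for Fads1, Fads2 and Elovl5 in S vs C (1.86%) and for Fads1 and Fads2 in NS vs C (0.562%). These counts describe genes picked from the same comparisons, and S vs C and NS vs C share the chow animals. The median log2 difference of the 7 genes from chow was 0.82 for HFD, 0.96 for S and 0.71 for NS, while over all genes tested it was 0.06, 0.10 and 0.01.

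Among animals on the same diet, S and NS livers held similar means of Fads1, with a log2 difference of 0.02 ± 0.20 (SE) in S vs NS. Fads2 was lower in mean in S by 0.25 ± 0.18, and Elovl2 and Elovl5 were higher in mean by 0.22 ± 0.23 and 0.17 ± 0.21. Among males alone, or with sex as a covariate, the log2 difference of Fads2 was 0.01 and that of Fads1 0.19, Elovl2 0.43 and Elovl5 0.25. Fads3 differed most, 2.19-fold higher in mean in S (log2 1.13 ± 0.41), with S1 and S2 at 72.4 and 88.6 CPM, while the other 3 S livers, at 27.2 to 32.2 CPM, lay between NS3 (23.8 CPM) and NS1 (47.8 CPM). No gene of the 7 was called in S vs NS by edgeR, where 0.00791% of all genes (1 gene) were called and 1381 genes had an unadjusted p under 0.05, and none of the 7 was called by DESeq2, which called 71 genes.

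**Figure D2:**
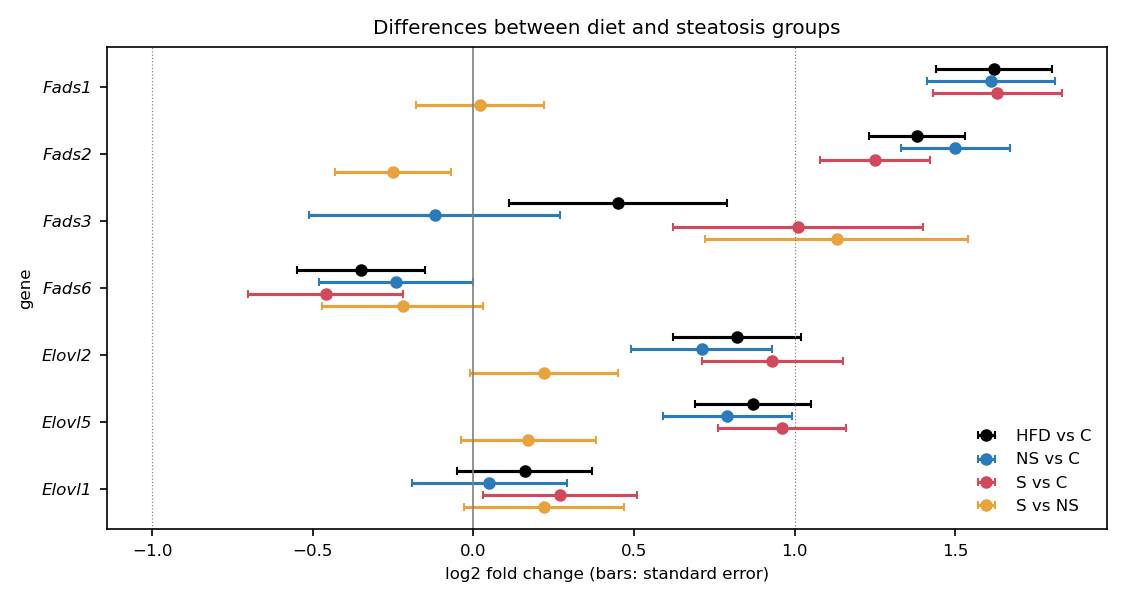
Log2 fold change (horizontal axis) of the 7 genes (vertical axis) for HFD, NS and S livers against chow and for S vs NS, with the standard error as bars and dotted lines at a fold of 2. Fads1 and Fads2 lie past a fold of 2 in the 3 comparisons with chow and near 0 in S vs NS, and the bars of Fads3 are the longest.

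The stock comparison was estimated within groups. In each group the SM2 animal was the highest or the next highest for Fads3, at 43.6 CPM in C1 against 16.3 to 28.9 in the BW chow livers, and at 47.8 CPM in NS1 against 13 to 23.8 in the BW livers of that group. In S the SM2 male S1 (72.4 CPM) was exceeded by the BW female S2 (88.6 CPM) and lay above the other 3 BW livers (27.2 to 32.2 CPM). Fads3 was 2.16-fold higher in SM2 than in BW (log2 1.11 ± 0.28 SE, adjusted p = 0.01331, edgeR quasi-likelihood test with Benjamini-Hochberg adjustment). This made 1 call among the 7 genes, near the 10.8% of all genes called between the stocks, and the call was lost when NS1 was left out (log2 0.89).

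Fads6 passed the adjusted threshold between stocks in the opposite direction, by less than the fold of 2. The SM2 animals held 21.5, 18.9 and 20.6 CPM in C1, NS1 and S1, at the bottom of C and NS and above only S3 (17.5 CPM) in S. Its log2 difference was −0.60 ± 0.22 (SE, adjusted p = 0.07772, edgeR), so that 2 of the 7 genes passed at any fold, near the 21.8% of all genes that did. For the 4 genes of the main route the differences between stocks missed the threshold, at 0.37 ± 0.18 for Fads1 (adjusted p = 0.1895), 0.08 ± 0.18 for Fads2 (0.8058), 0.00 ± 0.24 for Elovl2 (0.9948) and −0.39 ± 0.20 for Elovl5 (0.1973), as did Elovl1 at 0.19 ± 0.25 (0.6494). All of these rest on 3 SM2 animals. The sign for Fads2 turned to −0.05 with sex as a covariate or among males alone, and to −0.08 without S1.

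The HFD difference was seen in both stocks for the main route. In BW animals the mean log2 difference between HFD and chow livers was 1.65 for Fads1, 1.24 for Fads2, 0.86 for Elovl5 and 0.65 for Elovl2, and all 8 BW livers on HFD exceeded the BW chow mean for the first 3 of these genes, with 7 of 8 for Elovl2. In SM2 animals, with 1 chow and 2 HFD livers, it was 1.32 for Fads1, 1.97 for Fads2, 0.86 for Elovl5 and 1.40 for Elovl2. The difference between these differences was 0.71 ± 0.37 (SE) for Fads2 (adjusted p = 0.6793, edgeR) and 0.71 ± 0.51 for Elovl2 (adjusted p = 0.7567). None of the 7 genes was called for it, where 0.0712% of all genes were called and 986 had an unadjusted p under 0.05. DESeq2 called 89 genes and none of the 7. With 1 SM2 chow liver this interaction had little precision.

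The 3 females and 2 males of S overlapped for Fads1, Fads3, Elovl2, Elovl5 and Elovl1. Fads2 was lower in the 3 females (915, 1274 and 1369.5 CPM) than in the 2 males (1585 and 1702 CPM), while Fads6 was higher in the females (25.7 to 30.7 CPM) than in the males (17.5 and 20.6 CPM). Groups this small often separate, and the share of all genes that split the 3 females from the 2 males was not computed. One of the males, S1, is the SM2 animal, and Fads6 was lower in SM2 than in BW (log2 −0.60 ± 0.22 SE). Of the 5 S livers, S5 was the lowest for Fads1, Fads2, Fads3, Elovl2 and Elovl5 and the highest for Elovl1. S5 also held the highest summed level of 8 Kupffer cell and macrophage markers, 1156 CPM against 149 to 573 in the other 15 livers, of 9 lymphocyte markers (54.4 against 7.24 to 25.1 CPM) and of 5 bile duct markers (40.8 against 5.06 to 20.3 CPM). Its summed hepatocyte markers were 56943 CPM, the lowest of the S livers (62566 to 75312 CPM in the others). Of all other livers only NS1 was lower, at 56669.9 CPM. The part of these cells in the levels of S5 was not tested. Without S5, 5 of the 7 genes were called in S vs C, with Elovl2, Elovl5 and Fads3 added to Fads1 and Fads2. Calls over all genes in S vs C, 513 with every animal, ran from 192 to 573 when single animals were left out. The all-gene count for the fit without S5 is not given here, so its count of 5 has no matching share.

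Stellate cell and fibroblast markers were high in S3, at 3934 CPM over 9 genes against 226 to 583 in the other livers. S3 lay within the range of the other S livers for Fads1, Fads2, Elovl2 and Elovl5, and without it Fads1 and Fads2 were called in S vs C as before. Adipocyte markers summed to 6.25 CPM or less in each liver, and Lep was listed at 0 in all. In NS, NS4 was the lowest for Fads1 (383 CPM), Fads2 (1293 CPM) and Elovl2 (306 CPM).

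Levels of the 4 genes of the main route moved together across animals. Over the 16 livers, Pearson's r of log2 CPM was 0.92 between Fads1 and Fads2, 0.80 between Fads2 and Elovl5, 0.79 between Fads2 and Elovl2, 0.82 between Fads1 and Elovl2 and 0.79 between Elovl2 and Elovl5. These values hold the group differences that the genes were chosen on, and each pair shares its libraries. After the group means were subtracted r was 0.44, 0.45, 0.60, 0.62 and 0.51 in the same order, so within groups these 5 pairs still varied in the same direction. S5 was the lowest S liver for all 4 genes, and NS4 the lowest NS liver for Fads1, Fads2 and Elovl2. How far these livers carry the values was not tested, and the within-group r of other gene pairs was not computed for comparison. Fads1 and Elovl5 had r = 0.77 over all livers and 0.17 within groups. Fads3 went with Fads1 within groups (r = 0.67) and little with its neighbour Fads2 (r = 0.04), and Elovl1 ran against Elovl5 (r = −0.71) and Fads2 (r = −0.62). S5, the highest S liver for Elovl1, was the lowest S liver for both.

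**Figure D3:**
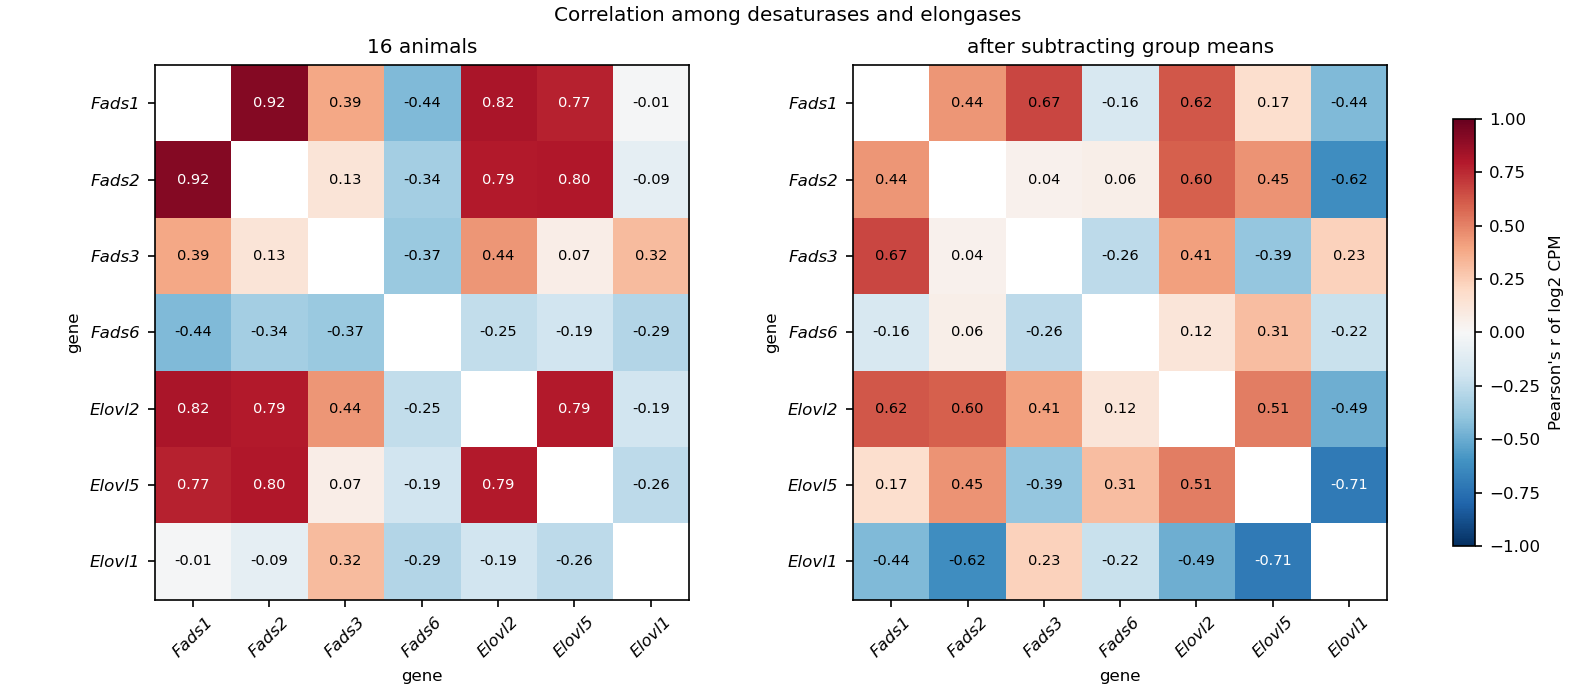
Pearson's r of log2 CPM between pairs of the 7 genes (both axes) over 16 animals (left) and after subtracting group means (right), coloured from −1 (blue) to 1 (red). The pairs among Fads1, Fads2, Elovl2 and Elovl5 lie between 0.77 and 0.92 on the left and between 0.17 and 0.62 on the right.

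Among 10325 genes with a mean of at least 1 CPM, the 5 with the pattern most like that of Fads2 over the 16 livers were Fads1 (r = 0.92), Dnmbp, Pelp1 and Prss35 (each r = 0.89) and Gse1 (r = 0.87). These values hold the diet difference on which Fads2 was chosen. After subtraction of group means r was 0.44 for Fads1, 0.24 for Dnmbp, 0.78 for Pelp1, 0.53 for Prss35 and 0.61 for Gse1. Prss35 ran from 0 to 6.77 CPM in C, from 13.5 to 93.7 in NS and from 22.4 to 60.3 in S. Elovl5 ranked 28 and Elovl2 ranked 38 in likeness to Fads2, while Fads3 ranked 4027, Elovl1 6176 and Fads6 8495. The pattern of Elovl5 was matched most closely by Ces4a (r = 0.91), Pygl and Dnmbp (each r = 0.85), Pklr (r = 0.84) and Dapl1 (r = 0.83). Within groups r with Elovl5 was 0.73 for Pygl, 0.54 for Dnmbp, 0.61 for Pklr and 0.56 for Dapl1. Ces4a, a carboxylesterase gene, kept r = 0.82 with Elovl5 after subtraction of group means and ran from 0 to 1.11 CPM on chow, from 0.126 to 11.3 in NS and from 1.53 to 17.8 in S. The 5 most alike genes of each list were ranked by the same 16 values and carry no test.

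Fads1, Fads2 and Fads3 lie side by side in the RefSeq annotation of the species, in the order Rab3il1, Fads3, Fads2, Fads1, Fen1, Tmem258 and Myrf. The tested genes around them overlapped between diets. Fen1, a flap endonuclease next to Fads1, was at 3.32 to 6.64 CPM on chow and 3.29 to 7.25 on HFD (a difference in mean log2 CPM of 0.03), and Tmem258 was at 36.9 to 80.1 and 25.2 to 68.5 CPM (−0.29). Myrf overlapped as well (2.02 to 7.09 against 2.18 to 7.69 CPM, 0.47), and so did Rab3il1 at low levels (0 to 0.854 against 0.255 to 1.71 CPM), with a difference in mean log2 CPM of 1.23. Fads3, next to Fads2, overlapped between diets as given above. Only uniquely mapped reads were counted, so stretches that the 3 neighbours share would be left out of each, and the strand setting of the count is not given in the sources used here.

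The wider pathway held 86 other genes, of which 79 were in the table and 77 were tested. These lists were also drawn up with earlier results of these data known, a limit on every p-value given for them below. In HFD vs C, 2 of the 77 rose (Srebf1 and Fabp1) and none fell, where 0.894% of all genes were called. In S vs C, 4 of the 77 rose (Srebf1, Elovl6, Acsl6 and Fabp1) and none fell, a share near the 4.06% of all genes called, of which 391 rose and 122 fell. None of the 77 was called in NS vs C (1048 of all genes with an unadjusted p under 0.05, and 2 of the 77 called by DESeq2) or S vs NS (1381 of all genes, and 0 of the 77 by DESeq2). Their median log2 difference was 0.11 in HFD vs C and 0.10 in S vs C, close to that of all genes.

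Among 15 regulators, Srebf1, the gene of SREBP-1, was the 1 gene called by edgeR in HFD vs C and in S vs C. Its level in C1 to C6 was 166, 239.5, 264, 129.5, 55.2 and 42.4 CPM. In NS1 to NS5 it was 1492, 711, 526, 237 and 762 CPM, and in S1 to S5 it was 1501, 559, 1011, 521 and 626 CPM. All S livers lay above all chow livers, NS4 fell inside the chow range, and the SM2 animals NS1 and S1 were the highest. Srebf1 rose 5.31-fold in HFD vs C (log2 2.41 ± 0.45 SE, adjusted p = 0.02346, edgeR) and 5.65-fold in S vs C (2.50 ± 0.49, adjusted p = 0.01984), while NS vs C gave 2.32 ± 0.49 (adjusted p = 0.1403). Scap, which carries SREBP to its processing site, rose 1.77-fold in S vs C at any fold (adjusted p = 0.07308). Mlxipl, the gene of the carbohydrate-responsive factor ChREBP, differed by 1.53 ± 0.51 (log2, SE) in HFD vs C (adjusted p = 0.1448, edgeR) and 1.53 ± 0.57 in S vs C (adjusted p = 0.1183), and it was called by DESeq2 in both, in all in 4 of 26 and 6 of 27 fits. Mlxipl was also 3.79-fold higher in SM2 than in BW (adjusted p = 0.0004552, edgeR), and it was named after its values were seen.

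**Figure D4:**
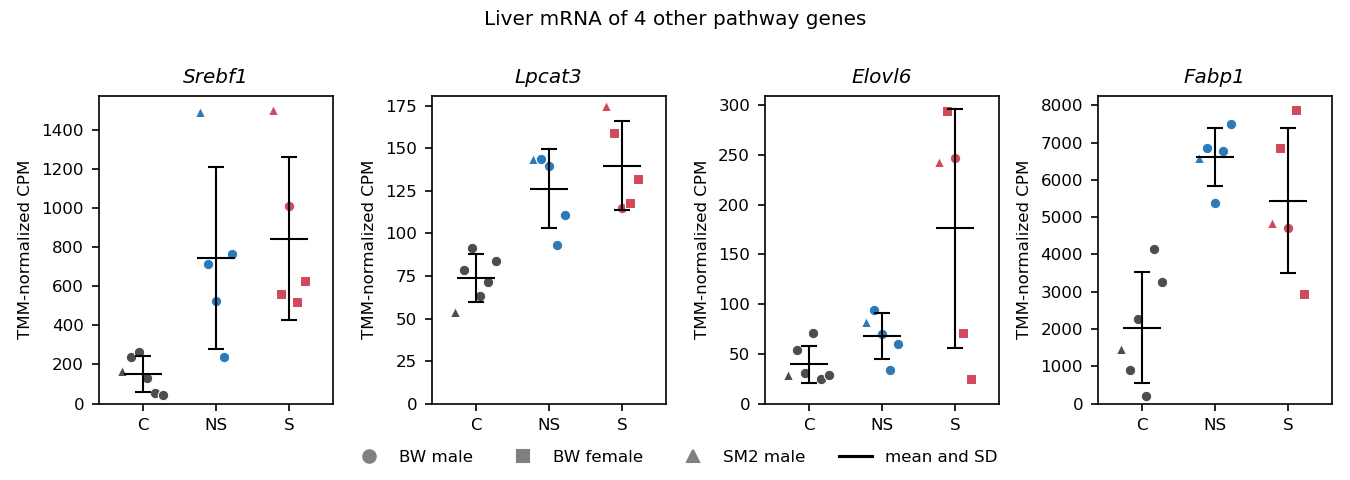
TMM-normalized CPM (vertical axes, each from 0) of Srebf1, Lpcat3, Elovl6 and Fabp1 in single livers of C, NS and S, with the symbols and the mean and SD bars of the plot of the 7 genes. Lpcat3 separates all HFD from all chow livers, and Elovl6 in S spans 24.9 to 294 CPM.

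Lpcat3 and Fabp1 stood out among 12 genes that place polyunsaturated chains in phospholipids or carry them. Lpcat3, an acyltransferase that puts arachidonic and linoleic acid into phospholipids, was at 53.8 to 91.7 CPM in C, 93.3 to 144 in NS and 115 to 175 in S, with no overlap between diets. It rose by less than the fold of 2, by 1.8-fold in HFD vs C (log2 0.85 ± 0.15 SE, adjusted p = 0.01531, edgeR) and 1.9-fold in S vs C (adjusted p = 0.01439), and it was named after its values were seen. Fabp1, the liver fatty acid-binding protein, was at 200 to 4140.1 CPM in C, 5387 to 7492 in NS and 2950.4 to 7877 in S. It rose 2.94-fold in HFD vs C (adjusted p = 0.09282) and 2.67-fold in S vs C (adjusted p = 0.09269), calls made in 9 of 26 and 9 of 27 fits. Agpat3, another acyltransferase, differed by 0.02 ± 0.13 (log2, SE) in HFD vs C.

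Of the elongases outside the family, Elovl6, which lengthens palmitate, rose 4.46-fold in S vs C (log2 2.16 ± 0.48 SE, adjusted p = 0.02874, edgeR). Its level in S1 to S5 was 243, 294, 247, 71 and 24.9 CPM, against 24.4 to 70.9 in C and 34.1 to 94.1 in NS, so 3 of the 5 S livers lay above every other liver and S5 lay at the bottom of the chow range. Elovl7 was at 5.5 ± 2.39 CPM in C (SD, n = 6) and 3.05 ± 2.13 on HFD (SD, n = 10), which did not pass. None of the 10 genes of the other elongation steps and electron donors was called. Cyb5a, the cytochrome that supplies electrons to desaturases, fell by less than the fold of 2, to 0.653-fold in HFD vs C (adjusted p = 0.06411) and 0.601-fold in S vs C (adjusted p = 0.03866), where all S livers (1635 to 2606 CPM) lay below all chow livers (2636 to 3948 CPM). Cyb5b, its mitochondrial form, fell to 0.718-fold in S vs C (adjusted p = 0.08359), and Tecr, the last enzyme of the elongation cycle, differed by −0.13 ± 0.14 (log2, SE) in HFD vs C. Cyb5b was named after its values were seen.

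**Figure D5:**
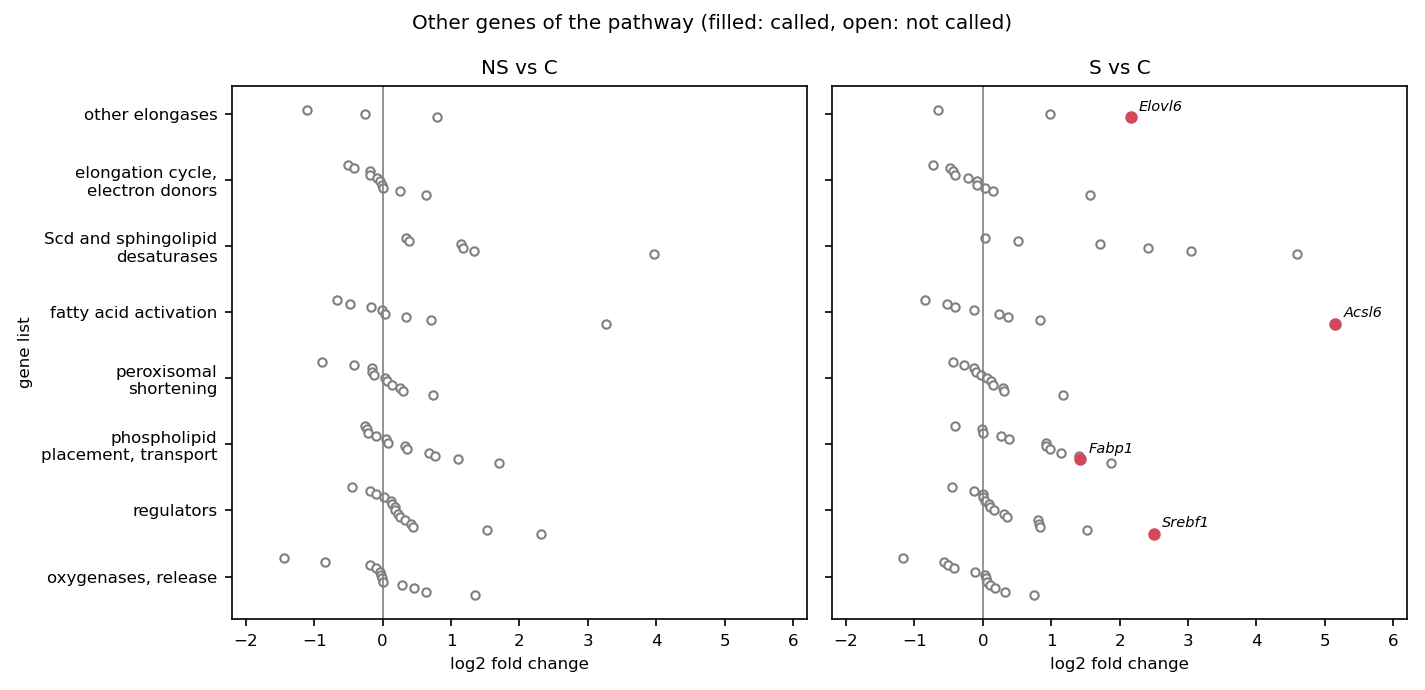
Log2 fold change (horizontal axis) of 77 other pathway genes in 8 lists (vertical axis) in NS vs C (left) and S vs C (right), where filled points were called and open points were not. In S vs C the 4 filled points are Srebf1, Elovl6, Acsl6 and Fabp1, and in NS vs C no point is filled.

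The 6 genes measured among stearoyl-CoA and sphingolipid desaturases had a median log2 difference of 2.07 for S vs C and 1.16 for NS vs C, and none was called by edgeR without covariates. DESeq2 called Scd2 in S vs C, and edgeR with stock as a covariate called Scd1, Scd3 and Scd4 there. With sex as a covariate, and among males alone without covariates, edgeR called Scd1 and Scd3. Over 27 fits of S vs C, Scd1 was called in 5 and Scd2, Scd3 and Scd4 in 3 each. Between stocks, Scd3 was 179.7-fold higher in SM2 than in BW (log2 7.49 ± 0.58 SE, adjusted p = 2.839e-07, edgeR). Scd1, Scd2 and Scd4 were not called between stocks, where 10.8% of all genes were. Scd1, which makes oleate, ran from 304 to 4588 CPM within C alone and from 1199 to 9273 CPM in S, a log2 difference of 1.72 ± 0.65 (SE, adjusted p = 0.1238, edgeR). The Scd genes are closely similar copies, so the split of reads between them is uncertain. Degs1, a ceramide desaturase, differed by 0.51 ± 0.20 in S vs C (adjusted p = 0.1481). Among 8 genes of fatty acid activation, Acsl6 was called in S vs C through S1, at 33.6 CPM against 0.0954 to 1.13 in the other S livers, and was listed at 0 in 4 of the 6 chow livers. S1 is an SM2 animal, and Acsl6 was 26-fold higher in SM2 than in BW (adjusted p = 0.0004763, edgeR). Acsl1, the main acyl-CoA synthetase of liver, differed by 0.36 ± 0.17 in HFD vs C (adjusted p = 0.2948), and Slc27a2 by −0.20 ± 0.15 (adjusted p = 0.4901).

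None of the 11 genes of peroxisomal shortening and none of the 12 of eicosanoid formation and release was called in any of the 4 group comparisons. Scp2, which encodes a peroxisomal thiolase, differed by 0.19 ± 0.13 (log2, SE) in HFD vs C. Ephx2, the soluble epoxide hydrolase, differed by 0.05 ± 0.20, and Hpgd, which breaks down prostaglandins, by −0.93 ± 0.52 (adjusted p = 0.3535, edgeR).

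The study compared the coordination of each gene with the transcriptome by a composite correlation, Pc, which is Pearson's r between the gene's correlations with all other genes in 1 group and those in the other. On the deposited counts, the median Pc of the 7 genes was 0.24 for S vs C and 0.12 for both NS vs C and S vs NS, where the medians of all genes were 0.20, 0.10 and 0.17. The study reported averages over its own sets of genes, lowest in S vs C and highest in S vs NS. These medians on counts do not reproduce that order, and the study listed more genes below −0.2 in each comparison. The lowest value was that of Fads2 in NS vs C, −0.20 with a jackknife SE of 0.27 over animals, at percentile 2.9 of all genes. It moved between −0.30 and 0.06 when single animals were left out, the latter without NS4. The share of all genes below −0.2 was 2.6% for S vs C, 2.92% for NS vs C and 3.53% for S vs NS. On TMM-normalized CPM in place of counts, Pc of Fads2 turned from 0.23 to −0.28 in S vs C and stayed negative in NS vs C at −0.30, and the family median became 0.13, 0.29 and 0.24. On that scale the medians of all genes were 0.11, 0.17 and 0.20, lowest in S vs C and highest in S vs NS. Jackknife SEs of the 7 genes ran from 0.10 to 0.47.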

How the data were processed

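RNA of 16 livers was sequenced from paired ends with a directional kit. Per the labels and the study's methods, the authors aligned reads with STAR 2.7.2 and used featureCounts, of the Subread package, to count reads with a unique alignment. The deposited values are raw counts per gene symbol, and the strand setting is not given in the sources used here. The closest pair of replicates differed by far more than sampling noise (chi-square 23.56 per degree of freedom), so each animal was 1 replicate.

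The 12639 genes that reached 0.5 CPM in 1 animal or more were fitted with edgeR 4.0.16 (quasi-likelihood test, TMM factors) in R 4.3.3 over all 16 animals, with C, NS and S as groups. HFD vs C compared the mean of NS and S with C. SM2 vs BW was fitted with group as a covariate, and the interaction with diet, stock and their product. Adjusted p-values (Benjamini-Hochberg) are over all genes tested, and standard errors were derived from the fold change and the F statistic. A call needed an adjusted p under 0.1 and a fold of at least 2. The fits were tested on simulated data with 200 changed genes. Correlations and likeness used log2 CPM with a prior count of 1.

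The 7 genes, the pathway and marker lists and the tests were chosen with earlier results of these data known. Named genes are the 7, called pathway genes, the 2 of highest mean count per list, and the 5 most like Fads2 or Elovl5. The values of 1 gene under this rule are not reported here. Alternatives were DESeq2 1.42.0, RLE factors, other filters and thresholds, stock or sex as covariates, BW or male animals alone, only the groups compared, and each animal left out. Promoter and protein sequences were not used here. RefSeq served only for gene order.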

Additional observations from a re-analysis of the deposited data

Results flagged for a closer look

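In 78 sets of values (26 genes in 3 groups), 7 had an animal whose distance from its nearest neighbour was large for a group of that size, at a limit that chance passes in about 1 in 20. Among the 7 desaturase and elongase genes these were Fads1 in C1, at 258 CPM with the next chow liver at 185, and Elovl1 in S5, at 15.7 CPM with the next S liver at 8.53. C1 is the SM2 chow animal, and it also stood apart for Hpgd at 647 CPM (next 188), Degs1 at 135 CPM (next 181) and Acsl6 at 0.886 CPM (next 0.144). Acsl6 in S1, the SM2 animal of that group, was at 33.6 CPM with the next S liver at 1.13. Slc27a2 in NS4 was at 2485 CPM with the next NS liver at 2078.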

How the results depend on the processing

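Fads1 and Fads2 were called in all 26 fits of HFD vs C and all 27 fits each of S vs C and NS vs C, and none of the 7 genes in the 27 fits of S vs NS. At any fold, 4 of the 7 were called in HFD vs C, 4 in S vs C and 2 in SM2 vs BW. In S vs C, sex as a covariate or males alone gave 4, where calls over all genes rose from 513 to 768 and 679. Leaving out 1 animal gave 2 to 5 (5 without S5), where 192 to 573 of all genes were called. Fads3 was called in S vs C in 6 of 27 fits, among them DESeq2, stock as a covariate and BW animals alone. Those 3 fits called 550, 659 and 610 of all genes. Between stocks, Fads3 kept its call in 23 of 24 fits, and leaving out 1 animal gave 0 (without NS1) to 1 of the 7. The log2 difference of Fads2 in SM2 vs BW reversed to −0.05 with sex as a covariate and among males alone, and ran from −0.08 (without S1) to 0.30 (without C1). The median Pc became 0.13 in S vs C on TMM-normalized CPM, and in S vs NS 0.24 on that scale and 0.26 on CPM by total count.

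Of the 77 other pathway genes, the 2 called in HFD vs C became 5 with DESeq2, 1 with no filter, 4 at any fold, 1 at an adjusted p under 0.05, 6 with stock and 4 with sex as a covariate, 1 in BW animals alone, and 1 (without any 1 of 10 animals, C1 among them) to 4 (without NS4). The 4 in S vs C became 8 at any fold, 2 at an adjusted p under 0.05, 8 with stock and 9 with sex as a covariate, 8 in males alone, and 2 (without C6 or S1) to 9 (without S5). NS vs C gave 2 with DESeq2, 1 with stock or sex as a covariate and 0 to 1 with 1 animal left out (1 without NS4), and S vs NS gave 1 in males alone (Elovl6).

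Over all genes, HFD vs C had 113 calls, against 240 with DESeq2, 338 at any fold, 42 at an adjusted p under 0.05, 231 with stock and 228 with sex as a covariate, and 36 to 234 with 1 animal left out. S vs C had 513, against 1359 at any fold, 209 at an adjusted p under 0.05 and 192 to 573 with 1 animal left out. It had 550 with DESeq2, 659 with stock and 768 with sex as a covariate, 610 in BW animals and 679 in males. NS vs C had 9, against 53 with DESeq2, 5 at an adjusted p under 0.05, 29 with stock as a covariate and 2 to 29 with 1 animal left out. S vs NS had 1, against 71 with DESeq2, 17 with stock and 191 with sex as a covariate, 18 in BW animals, 157 in males, 0 with only the groups compared and up to 15 with 1 animal left out. SM2 vs BW had 1370, against 2752 at any fold and 868 to 1448 with 1 animal left out, and the interaction 9, against 89 with DESeq2. The causes were not tested. No paired analysis was possible because the labels number no replicates across groups. Promoter motifs and protein identity were not run.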
